A study of Mus musculus with 17 samples.

Results

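The SOCS proteins (suppressors of cytokine signalling) are the feedback inhibitors of cytokine receptors, and 4 of their genes, Socs1, Socs2, Socs3 and Cish, were followed here in macrophages that lack or carry Socs3 and were stimulated with IL-6. They were found by gene symbol: every probe set whose only symbol on the platform is one of these 4 names was taken, which gave 4 of 8252 named genes and 5 of the 12488 probe sets on the array, 1 each for Socs1 (92832_at), Socs2 (99475_at) and Cish (100022_at) and a pair for Socs3. The pair is called first (92232_at) and second (162206_f_at) here. All 5 passed the filter on dim probe sets, Socs2 only through arrays of replicate 3.

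Mouse bone marrow-derived macrophages were measured on 17 arrays in 6 groups: KO cells at rest (3 arrays), KO cells given IL-6 for 100 or for 400 min (3 arrays each), WT cells at rest (2 arrays), and WT cells given IL-6 for 100 or for 400 min (3 arrays each). KO cells came from irradiated mice whose blood system had been rebuilt with SOCS3-/- fetal liver, WT cells from mice that received SOCS3+/+ fetal liver, and in both the macrophages were grown from donor-derived marrow. IL-6 was given at 10 ng/ml. Replicates are numbered in the labels with no word on whether each is its own mouse or culture, so the p-values measure the spread between arrays, which may be technical. The deleted stretch of Socs3 is not named either, and a probe set outside it would still read any transcript that is left. In bulk RNA, fewer cells of a type and less RNA per cell cannot be told apart.

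Cytokines such as IL-6 signal through receptor chains, for IL-6 the shared chain gp130, to which JAK kinases are bound. The kinases phosphorylate STAT transcription factors, and the STATs switch on target genes, SOCS genes among them. SOCS proteins bind phosphorylated receptors or the kinases through an SH2 domain, and through a C-terminal SOCS box they recruit elongins B and C and a cullin to form a ubiquitin ligase. SOCS3 docks on gp130 and is known as a STAT3 target. SOCS1 acts on the JAKs and on interferon receptors and is known as an interferon-inducible gene. CIS, the product of Cish, and SOCS2 are best known as STAT5 targets that act on growth hormone and related receptors.

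The stretches before the annotated starts of Socs3 and Socs1 are shown because these are the genes whose levels differed between the genotypes, and the start of Cish is shown for comparison. RefSeq windows of 300 bases on GRCm38.p6, 250 before to 50 after the start, were there for 3 of the 4 genes and not for Socs2. Capitals mark matches to TTCNNNGAA, the usual STAT motif, or to the half-site GAAA repeated with any 2 bases between, a motif of the IRF factors, both strands searched. The Socs3 stretch is chr11:117969367-117969616 (minus strand), the Socs1 stretch chr16:10785537-10785786 (minus strand) and the Cish stretch chr9:107296659-107296678 (plus strand). Each reads 5′ to 3′ on the gene's strand, and the Cish stretch begins at its annotated start.
Socs3: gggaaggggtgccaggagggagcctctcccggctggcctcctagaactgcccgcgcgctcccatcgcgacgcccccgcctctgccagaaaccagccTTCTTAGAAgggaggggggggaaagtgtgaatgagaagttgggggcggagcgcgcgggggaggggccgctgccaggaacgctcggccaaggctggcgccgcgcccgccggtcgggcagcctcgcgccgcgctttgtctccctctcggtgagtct
Socs1: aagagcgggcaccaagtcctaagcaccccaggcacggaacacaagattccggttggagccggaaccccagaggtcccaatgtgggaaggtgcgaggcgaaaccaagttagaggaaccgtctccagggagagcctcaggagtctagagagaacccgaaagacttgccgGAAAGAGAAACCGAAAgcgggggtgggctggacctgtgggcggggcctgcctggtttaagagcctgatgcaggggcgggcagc
Cish: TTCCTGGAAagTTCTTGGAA

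Counting the first base of the transcript as 1 and the base before it as -1, the Socs3 window held 1 match to TTCNNNGAA, from -154 to -146. The Cish window held 2, from 1 to 9 and from 12 to 20. The Socs1 window held no TTCNNNGAA and 2 overlapping matches to the IRF motif, from -83 to -74 and from -77 to -68. Of all 32851 RefSeq windows of this length, 8.3% held TTCNNNGAA and 3.44% held the IRF motif. The STAT motif with 4 bases between TTC and GAA, which 6.95% of the windows held, had no match in the 3 windows. A match is a run of letters and was not tested for binding.

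**Figure D1:**
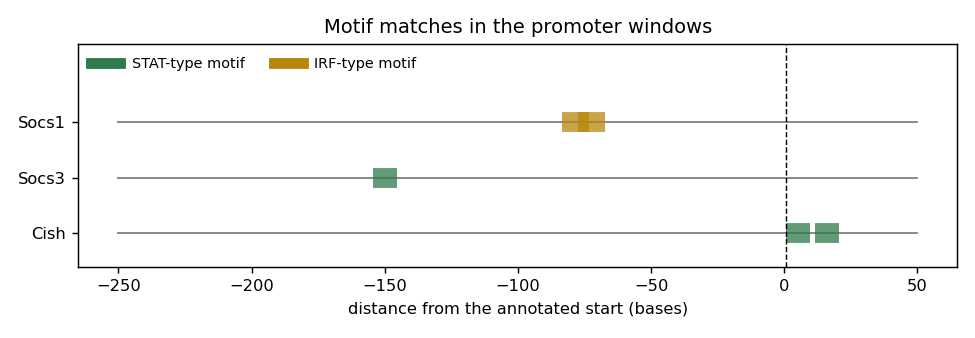
Positions of the motif matches in the promoter windows of Socs1, Socs3 and Cish, in bases from the annotated start (dashed line); green bars are matches to the STAT-type motif and gold bars matches to the IRF-type motif. The Socs1 window has 2 overlapping IRF-type matches, the Socs3 window 1 STAT-type match and the Cish window 2 STAT-type matches just after the start.

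The cells carried the markers of macrophages. All 9 macrophage markers were tested, and the summed normalized intensity of the 9 lay between 103467 and 132529 on all arrays. Csf1r, the receptor for the macrophage growth factor M-CSF, had a median deposited intensity of 22431 and Lyz2, lysozyme, one of 27718. None of 5 T and NK cell markers passed the filter, and those 5 summed to 179.5 to 380.1. Markers of other cell types did pass it: 7 of 8 neutrophil, 4 of 4 B cell and 3 of 3 erythroid markers on the array. So did 2 of 4 mast cell and 4 of 5 stroma markers. The highest sum of any of these lists was 1989, for stroma, where Col1a2 had a median deposited intensity of 912.1. Arrays of replicate 3 stood apart from the others: with replicate 3 as a term in the fit, 717 of 9871 probe sets differed (7.26%), and 15 cell cycle genes summed to between 21658 and 42007 on them, against 18699 to 24117 on arrays of replicates 1 and 2. Unstimulated WT cells have no array of replicate 3. Sex-linked genes also separated the genotypes: Xist had deposited intensities of 220.5 to 1010.0 on KO arrays and 10.7 to 214.3 on WT arrays, and Eif2s3y, of the Y chromosome, 6.2 to 121.5 on KO arrays and 252.2 to 783.3 on WT arrays. Genotype and the level of these genes, with any difference in the sex of the cells, cannot be told apart here. This holds for every KO against WT difference below, that of Socs1 included.

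Values per array below are the deposited linear intensities, scaled per array by the submitters. Fold changes are log2 differences between group means after quantile normalization, from limma's moderated test over all 9871 tested probe sets, with standard errors (SE) and p-values adjusted by Benjamini-Hochberg over all of them. The word called is kept for an adjusted p under 0.05.

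Socs3, the targeted gene, separated the genotypes after IL-6, with one exception. On the first probe set the 3 KO arrays at rest read 17.3, 28.8 and 14.9 for replicates 1 to 3. KO arrays at 100 min read 78.3, 77.6 and 160.2, and those at 400 min 45.2, 77.4 and 883.7. WT arrays read 110.7 and 72.9 at rest. At 100 min they read 2647.6, 1911.0 and 429.5, and at 400 min 2441.2, 2003.8 and 2104.4. The 2 unstimulated WT arrays were thus within the range of the stimulated KO arrays, and the stimulated WT arrays were above all KO arrays except that the library labelled KO 400 min replicate 3, at 883.7, lay above WT 100 min replicate 3, at 429.5.

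The second Socs3 probe set gave the same order of groups, with a smaller span. KO arrays read 63.4, 29.8 and 104.9 at rest, 148.5, 109.8 and 319.7 at 100 min, and 110.7, 78.2 and 784.3 at 400 min. WT arrays read 175.1 and 103.3 at rest, 1307.6, 1214.6 and 479.7 at 100 min, and 1333.0, 1089.7 and 1301.6 at 400 min. In both probe sets the group means ran, from high to low, WT 400 min, WT 100 min, KO 400 min, KO 100 min, WT unstimulated and KO unstimulated. Neighbours in that order had overlapping ranges, except that on the first probe set KO unstimulated lay below WT unstimulated without overlap.

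At matched times the log2 difference of KO from WT cells on the first Socs3 probe set was -1.82 (SE 0.99, adjusted p = 0.862) in unstimulated cells. That value rests on the floor for dim values, under which 2 of the 3 KO arrays lay, and was -0.80 with the floor at the 20th percentile. At 100 min it was -3.64 (SE 0.89, adjusted p = 0.368), and at 400 min it was -3.85 (SE 0.89, adjusted p = 0.102). None of these passed limma's test. Both probe sets lay lower in KO cells without overlap at 100 min, as 4.99% of tested probe sets did, and at 400 min, as 7.57% did. Over 100 and 400 min together, a comparison chosen after these values were seen, the first probe set was -3.74 (SE 0.63, adjusted p = 0.0134), a call, and the second was -2.52 (SE 0.55, adjusted p = 0.0772). In that comparison 52 of 9871 probe sets were called (0.527%). Single times depended on the library labelled KO 400 min replicate 3. Without it the first probe set was at -3.64 (adjusted p = 0.0357) at 100 min and -5.14 (adjusted p = 0.00854) at 400 min, and both times together gave -4.39 (adjusted p = 0.000751). Within replicates 1 and 2 the difference over both times was -4.99 (adjusted p = 0.000294), and within replicate 3 it was -1.27 at 100 min and -1.23 at 400 min, with 1 array a group and no test. On the second probe set the values within replicate 3 were -0.53 at 100 min and -0.70 at 400 min. Fitted on the stimulated groups alone, the difference of the first probe set over both times was no longer called (adjusted p = 0.0671).

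The library labelled KO 400 min replicate 3 read like the other KO libraries for Socs1 and the sex-linked genes, but not for Socs3. Its Eif2s3y intensity was 87.2 and its Xist intensity 426.4, both inside the KO ranges and outside the WT ranges. Its Socs1 intensity was 843.3, beside 818.9 and 829.0 on the other KO arrays at 400 min. The ratio of the first to the second Socs3 probe set was 1.13 on this array, 0.142 to 0.990 on the other 8 KO arrays and 0.895 to 2.02 on the 6 stimulated WT arrays. On the 2 unstimulated WT arrays it was 0.632 to 0.706, inside the range of the KO arrays, so the ratio does not tell the genotypes apart. Where its Socs3 signal came from was not tested.

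In WT cells Socs3 had the largest fold changes of the 4 genes. Against unstimulated WT cells, the log2 change of the first probe set was 3.99 at 100 min (SE 0.99, adjusted p = 0.395) and 4.78 at 400 min (SE 0.99, adjusted p = 0.222). That of the second was 2.91 at 100 min (SE 0.88, adjusted p = 0.593) and 3.36 at 400 min (SE 0.88, adjusted p = 0.409). All 6 stimulated WT arrays lay above both unstimulated ones on both probe sets, a separation upwards that 3.52% of all tested probe sets showed. None of the 5 SOCS probe sets was called in WT cells at either time by limma, and only 1 of 9871 probe sets (0.0101%) was called at each. Of the 5, 2 had an unadjusted p under 0.05 at each time. Of all 9871, 604 had one at 100 min and 618 at 400 min. Within replicates 1 and 2 the first Socs3 probe set was called, at 4.76 (adjusted p = 0.00379) at 100 min and 4.80 (adjusted p = 0.0100) at 400 min.

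In KO cells the stimulated arrays also read more Socs3 than the unstimulated ones on the first probe set, while on the second they overlapped. On the first probe set the 6 stimulated KO arrays read 45.2 to 883.7 and the 3 unstimulated ones 14.9 to 28.8, with no overlap, a separation upwards that 2.82% of tested probe sets showed. Leaving aside the library labelled KO 400 min replicate 3, the 5 others read 45.2 to 160.2. The change over both times was 2.46 (SE 0.77, adjusted p = 0.223), and 1.81 (adjusted p = 0.141) without that library, so no call was made. It was 1.59 within replicates 1 and 2 (adjusted p = 0.0694) and 1.43 with the floor at the 20th percentile. In that comparison 117 of 9871 probe sets were called (1.19%). Of the unstimulated KO arrays 2 lay under the floor set for dim values, so these log2 changes depend on how dim values were treated. With log2(intensity + 16) the change of the first probe set in KO cells over both times was 2.01. The KO response minus the WT response of Socs3 on the first probe set was -1.82 at 100 min (SE 1.33, adjusted p = 1.00) and -2.03 at 400 min (SE 1.33, adjusted p = 0.932). The value at 400 min was -3.32 without the library labelled KO 400 min replicate 3 and -1.22 without KO 400 min replicate 1. Within replicates 1 and 2 the values were -3.02 at 100 min and -3.36 at 400 min, and with the floor at the 20th percentile -2.84 and -3.05, none of them called. On the second probe set the stimulated KO arrays read 78.2 to 784.3 and the unstimulated ones 29.8 to 104.9. Its change in KO cells over both times was 1.67 (SE 0.68, adjusted p = 0.449 in limma's test). Its KO response minus the WT response was -1.33 at 100 min and -1.59 at 400 min (SE 1.17 at both), not called at either.

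**Figure D2:**
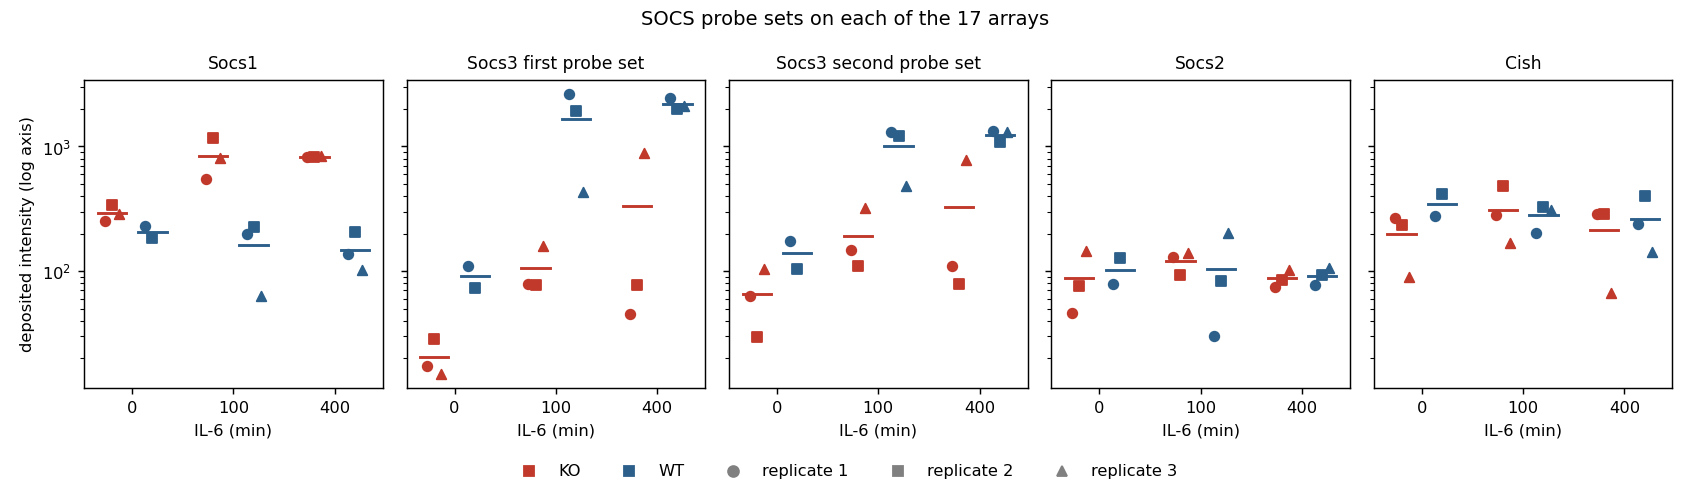
Deposited intensity (log axis) of the 5 SOCS probe sets on each array by time of IL-6 (min); red symbols are KO and blue WT, the symbol shape gives the replicate, and bars are group means of 3 arrays (2 for WT unstimulated). Socs1 is high on the 6 stimulated KO arrays (552.0 to 1174.8) and Socs3 on the stimulated WT arrays, while Socs2 and Cish overlap in all stimulated groups.

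Socs1 had the opposite pattern: it was high in stimulated KO cells and low in WT cells at every time. KO arrays read 253.6, 337.6 and 285.2 at rest. They read 552.0, 1174.8 and 802.5 at 100 min, and 818.9, 829.0 and 843.3 at 400 min. WT arrays read 229.4 and 183.4 at rest, 199.1, 226.3 and 63.5 at 100 min, and 137.3, 207.8 and 101.5 at 400 min. Every KO array was above every WT array, unstimulated ones included. The margin was narrow after normalization: the lowest KO array, unstimulated replicate 1, was at 257.9 and the highest WT array, 100 min replicate 2, at 255.4. Time by time, such a separation upwards was shown by 11.8% of tested probe sets in unstimulated cells, 4.19% at 100 min and 7.21% at 400 min. Only 5 of 9871 tested probe sets (0.0507%) were higher on all 9 KO arrays than on all 8 WT arrays; the other 4, named after their values were seen, were Xist, Mmp12, Cytip and Sypl.

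The difference between the genotypes passed the test at 400 min. Socs1 averaged 830.4 ± 12.3 in KO cells and 148.9 ± 54.1 in WT cells (SD, n = 3 each), a log2 difference of 2.58 (SE 0.46, adjusted p = 0.0336 in limma's test). It was the only SOCS probe set of 5 called there, where 36 of 9871 were called (0.365%). At 100 min Socs1 averaged 843.1 ± 313.4 in KO cells and 163.0 ± 87.2 in WT cells (SD, n = 3 each). The difference of 2.43 (SE 0.46, adjusted p = 0.0935) was not called, as none of the 5 was, and 4 of 9871 probe sets were called (0.0405%). Of the 5, 3 had an unadjusted p under 0.05, and of all 9871, 483 had one. Over both times, the comparison chosen after the values were seen, Socs1 was higher in KO cells by 2.51 (SE 0.33, adjusted p = 0.00424), which is 5.69-fold with a 95% confidence interval of the log2 value from 1.81 to 3.21. That call was kept with any of the 17 arrays left out, with adjusted p from 0.00117 to 0.0149, and in each of 11 other settings. Within replicates 1 and 2 it was 2.07 (adjusted p = 0.00896), being 1.81 at 100 min alone (adjusted p = 0.155) and 2.33 at 400 min alone (adjusted p = 0.0286). With replicate 3 as a batch block the difference at 100 min was also called (2.43, adjusted p = 0.0427). Within replicate 3, with 1 array a group, Socs1 was 3.69 higher at 100 min and 3.08 higher at 400 min.

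The call at 400 min alone was less firm. It was lost in 9 of 17 fits that each left out 1 array, all of them without an array of KO unstimulated, KO 400 min or WT 400 min (highest adjusted p = 0.118), and in the fit of only the groups compared (adjusted p = 0.0678). In unstimulated cells Socs1 averaged 292.1 ± 42.4 in KO (SD, n = 3) and 206.4 ± 32.5 in WT cells (SD, n = 2). The difference of 0.58 (SE 0.52, adjusted p = 0.918) was not called, and neither was that of any other of the 5 probe sets, of which 0 had an unadjusted p under 0.05 in limma's test. Of all 9871 probe sets 0 were called there, and 591 had an unadjusted p under 0.05. From high to low the group means of Socs1 ran KO 100 min, KO 400 min, KO unstimulated, WT unstimulated, WT 100 min and WT 400 min. The ranges of neighbours overlapped, except for KO 400 min over KO unstimulated and KO unstimulated over WT unstimulated. The latter separation was shown by 11.8% of tested probe sets.

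Read as a response to IL-6, the log2 change of Socs1 in KO cells was 1.49 at 100 min (SE 0.46, adjusted p = 0.362) and 1.56 at 400 min (SE 0.46, adjusted p = 0.135). None of the 5 SOCS probe sets was called in KO cells by limma at 100 min, where 57 of 9871 were called (0.577%). There 2 of the 5 had an unadjusted p under 0.05, and 609 of all 9871. None was called at 400 min either, where 180 of 9871 were called (1.82%). There 3 of the 5 had an unadjusted p under 0.05, and 1202 of all 9871. Over both times Socs1 was at 1.53 (SE 0.40, adjusted p = 0.108), where 1.19% of tested probe sets were called. All 6 stimulated KO arrays lay above the 3 unstimulated ones, a separation upwards that 2.82% of tested probe sets showed. With replicate 3 as a batch block Socs1 was called over both times at the same 1.53 (adjusted p = 0.0496), and within replicates 1 and 2 it was not (adjusted p = 0.0656). In WT cells Socs1 was at -0.37 (95% confidence interval -1.48 to 0.74) at 100 min and -0.45 (-1.56 to 0.67) at 400 min. The value at 100 min was 0.29 within replicates 1 and 2, since WT 100 min replicate 3 held the lowest reading, 63.5.

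The KO response minus the WT response of Socs1 was 1.86 at 100 min (SE 0.69, adjusted p = 1.00) and 2.01 at 400 min (SE 0.69, adjusted p = 0.718). Neither was called. Limma called 0 of 9871 probe sets in either comparison, with an unadjusted p under 0.05 for 361 at 100 min and 531 at 400 min. Of the 5 SOCS probe sets 1, Socs1, had an unadjusted p under 0.05 in each. 

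**Figure D3:**
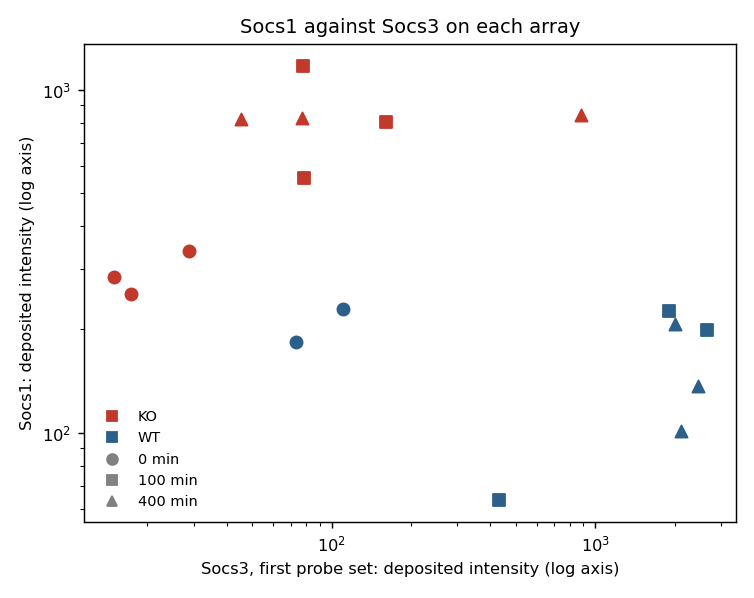
Deposited intensity of Socs1 against that of Socs3 on the first probe set, 1 symbol per array, both axes log; red is KO, blue is WT, and the shape gives the time of IL-6. The 6 stimulated KO arrays lie at the top, at Socs1 readings of 552.0 to 1174.8, and the 6 stimulated WT arrays lie lower and mostly to the right, at Socs1 readings of 63.5 to 226.3; the library labelled KO 400 min replicate 3 is the red triangle at a Socs3 reading of 883.7.

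Socs2 was dim and gave no call with genotype or IL-6. KO arrays read 46.5, 75.9 and 144.1 at rest, 129.0, 92.7 and 140.0 at 100 min, and 75.1, 85.0 and 102.2 at 400 min. WT arrays read 78.8 and 126.7 at rest, 29.9, 84.0 and 200.7 at 100 min, and 77.8, 93.3 and 105.4 at 400 min. All groups overlapped, and Socs2 stood between the 15.1 and 50.2 percentile of its array. Its group means ran KO 100 min, WT 100 min, WT unstimulated, WT 400 min, KO unstimulated and KO 400 min from high to low, with overlapping ranges at each step. Over the 11 comparisons its log2 fold change lay between -0.48 and 0.63 (lowest adjusted p = 0.852). In KO against WT cells at 400 min it was -0.03, with a 95% confidence interval from -1.14 to 1.08.

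Cish lay in the middle of the intensity range and likewise showed no called change with genotype or IL-6. KO arrays read 266.8, 236.4 and 89.5 at rest, 282.5, 481.7 and 167.6 at 100 min, and 286.0, 288.5 and 66.7 at 400 min. WT arrays read 278.9 and 416.7 at rest, 202.0, 328.7 and 307.8 at 100 min, and 241.0, 402.9 and 143.4 at 400 min. The unstimulated KO arrays were all below the unstimulated WT arrays, as 11.7% of tested probe sets were, and the stimulated groups overlapped. From high to low the group means ran WT unstimulated, KO 100 min, WT 100 min, WT 400 min, KO 400 min and KO unstimulated, and each pair of neighbours overlapped. Over the 11 comparisons its log2 fold change lay between -0.93 and 0.95 (lowest adjusted p = 0.796). In KO against WT cells at 400 min it was -0.45, with a 95% confidence interval from -1.75 to 0.85.

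Cish read lowest on the array of replicate 3 in every group that has one, except WT 100 min. There replicate 3, at 307.8, lay between replicate 1, at 202.0, and replicate 2, at 328.7. The arrays of replicate 3 read 66.7 to 307.8 with a median of 143.4, and those of replicates 1 and 2 read 202.0 to 481.7 with a median of 284.2. With replicate 3 as a term in the fit, Cish was lower on replicate 3 by -1.10 on the log2 scale (SE 0.28, adjusted p = 0.0353), a term looked at after the values were seen, in which 3.58% of probe sets were called lower. The call was lost in 11 of 17 fits with 1 array left out, the largest adjusted p, 0.103, without KO unstimulated replicate 3, and the value was -0.84 (adjusted p = 0.0874) without the library labelled KO 400 min replicate 3. Socs1 stood 0.56 lower on replicate 3 (-0.56, SE 0.28, adjusted p = 0.255), which was not called. Socs2 stood 0.81 higher there (SE 0.27), also without a call. On arrays of replicates 1 and 2 Socs2 reached at most the 36.3 percentile, so it passed the filter only through arrays of replicate 3. The test of that term therefore cannot be read for Socs2. The summed cell cycle genes given above reached 42007 on these arrays, against at most 24117 on the others, and their part in the Cish reading was not tested.

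**Figure D4:**
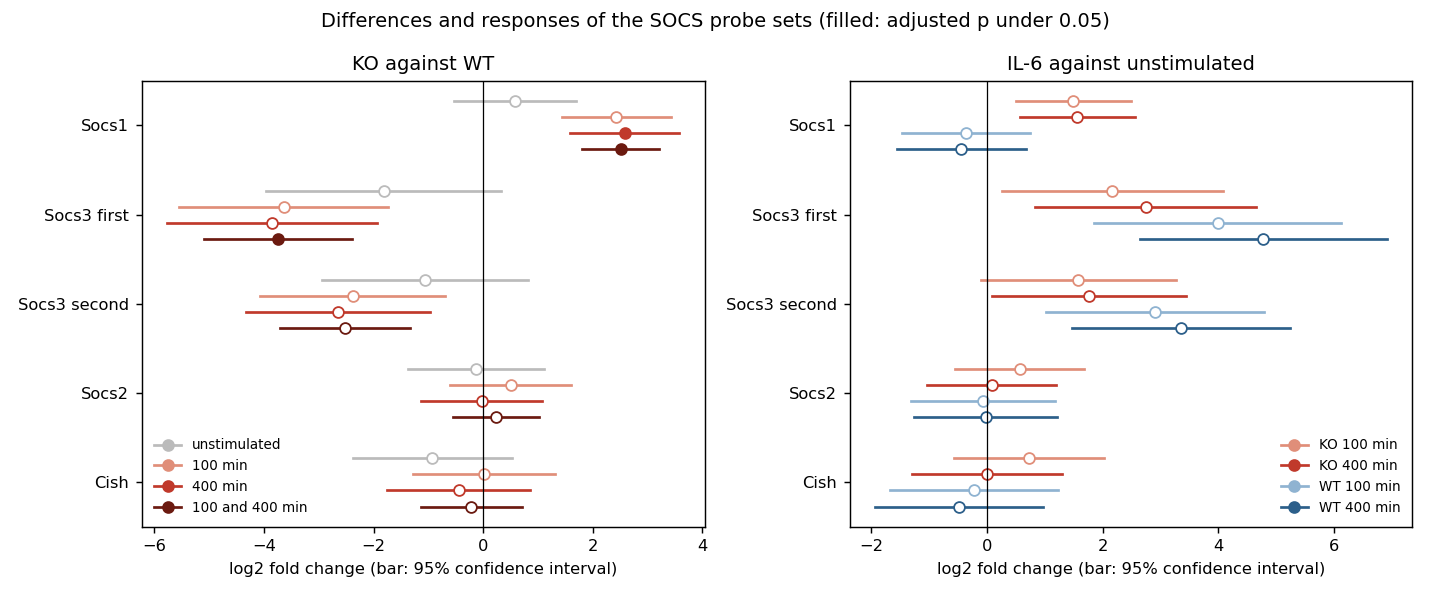
Log2 fold changes of the 5 SOCS probe sets with 95% confidence intervals: KO against WT on the left, IL-6 against unstimulated cells of the same genotype on the right, with filled symbols for an adjusted p under 0.05. The filled symbols are Socs1 at 400 min and over both times (2.58 and 2.51) and Socs3 on the first probe set over both times (-3.74).

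Set side by side, Socs1 and Socs3 divided by genotype after IL-6, while the genotypes overlapped for Socs2 and Cish. After IL-6 the stimulated WT arrays held much Socs3 and little Socs1. The stimulated KO arrays held much Socs1 and, on the first probe set, little Socs3 but for the library labelled KO 400 min replicate 3. On the second Socs3 probe set KO 100 min replicate 3 also came near WT 100 min replicate 3, at 319.7 against 479.7. No SOCS probe set was called between 400 and 100 min in KO or WT cells, where 0 of the 5 had an unadjusted p under 0.05. Limma called 0 of 9871 probe sets in that comparison in either genotype, with an unadjusted p under 0.05 for 891 in KO cells and 622 in WT cells.

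Genes of the pathway around the SOCS proteins gave few calls. Of 6 genes listed for the SOCS box ligase 4 were tested: Elob, Eloc, Cul2 and Rnf7. None of the 4 was called by limma in any of the 11 comparisons, and 4 of these 44 tests had an unadjusted p under 0.05. Of all 9871 probe sets, 361 to 1202 had one, depending on the comparison. Cul2, a cullin named after its value was seen, was at 0.80 (SE 0.26, adjusted p = 0.179) in KO cells at 400 min, the comparison with 1202. Among 9 tested other brakes of JAK-STAT signalling (PIAS proteins, phosphatases and adaptors), 1 rose, in KO cells at 400 min: Ptpn1, the phosphatase PTP1B, which acts on JAKs, at 1.58 (SE 0.31, adjusted p = 0.0190). Of all tested probe sets 1.2% were called higher there. The median of the 9 was 0.13, against -0.04 over all tested probe sets. Among 11 tested receptor chains, JAKs and STATs 1 rose, also in KO cells at 400 min: Stat3, at 1.37 (SE 0.25, adjusted p = 0.0127), with a median of 0.69 for the 11 and the same 1.2% of all called higher.

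Known targets of the STATs gave more calls. Of 7 targets of STAT3, 4 rose in KO cells at 100 min, where 0.537% of all tested probe sets were called higher. At 400 min 4 rose, where 1.2% of all were called higher, and 1, Fos, a subunit of the AP-1 factor, fell (-2.10, adjusted p = 0.0357). In WT cells 1 of the 7 rose at each time, Il4ra, the IL-4 receptor alpha chain, by 2.85 at 100 min (SE 0.39, adjusted p = 0.0456) and by 3.58 at 400 min (SE 0.39, adjusted p = 0.00339). Il4ra was itself the 1 of 9871 probe sets (0.0101%) called in WT cells at each time. In KO against WT cells none of the 7 was called at 100 or 400 min, where 0.0405% and 0.365% of all were. Over both times 2 were called higher in KO cells, where 0.527% of all were called. The KO response minus the WT response gave no call among the 7 at either time. Of 4 tested targets of STAT5, Pim1, a kinase gene also on the STAT3 list, rose in KO cells, by 1.66 at 100 min (SE 0.22, adjusted p = 0.00299) and by 2.01 at 400 min (SE 0.22, adjusted p = 0.000479).

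Genes whose readings most resembled each SOCS gene were found by Pearson's r on the normalized log2 values among 8725 named probe sets, as a description of arrays that share groups and replicate numbers. For Socs1, over 17 arrays, they were Flot2, a membrane scaffold protein (r = 0.881), and the chemokine genes Ccl2 (0.871) and Ccl4 (0.849). For Socs3 on the first probe set, over the 8 WT arrays, they were Il4ra (r = 0.978), Vmp1 (0.969) and Rc3h2 (0.967), and on the second Rundc3a (0.974), Ppp2cb (0.971) and Vmp1 (0.970). For Cish, over 17 arrays, they were Eif5b (r = 0.814), St13 (0.804) and Fancg (0.784), and for Socs2 Traip (0.833), Nrip1 (0.808) and Hltf (0.800). The 2 Socs3 probe sets thus shared Vmp1.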

How the data were processed

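Expression was measured on 17 arrays, each assigned to a group by its label. The authors deposited 1 linear intensity per probe set and array; the mean after leaving out 2% at each end was 500.3 to 500.4 on every array, so the deposited intensity had been scaled per array. Which software and background correction made them is not given in the sources used here. Array medians differed by 0.40 (log2), so intensities were quantile normalized, raised to the 10th percentile (22.01) where lower, and log2 transformed. Left out were 66 control probe sets and probe sets not above the 40th percentile of their array on 2 arrays; 9871 remained. Symbols came from the platform's annotation.

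Comparisons were tested with limma 3.58.1 (R 4.3.3), with 1 mean per group over all arrays, in 11 comparisons and 4 more, over both stimulated times, added after the values were seen. Deposited values, another floor, log2(intensity + 16), other filters, other variance models, blocks and each array left out were tried. The fit was checked on simulated data. The SOCS genes and lists were chosen with earlier results of these data known. List genes were named only where called, at most 4 a list, by adjusted p, besides the 3 genes most correlated with each SOCS gene; Cul2 was named after its value was seen. One list of target genes is not reported here. Promoter sequences are RefSeq's. The number of arrays limits the precision.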

Additional observations from a re-analysis of the deposited data

How the results depend on the processing

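The number of SOCS probe sets called, of 5, depended on the setting in the comparisons with IL-6. For KO against WT cells at 400 min it was 1 in the reported fit, 0 in a fit of only the groups compared, 2 with a stricter filter or with a trend and robust variance model, and 3 with array weights or within replicates 1 and 2; it lay between 0 and 2 with 1 array left out, Socs1 being lost and both Socs3 probe sets gained without the library labelled KO 400 min replicate 3. At 100 min it was 0 as reported, 1 with replicate 3 as a batch block, with a trend and robust variance model or within replicates 1 and 2, and 2 with array weights, and 0 to 1 with 1 array left out. Over both times it was 2 as reported and 1 in the fit of only the groups compared. It was 3, with Socs3 on the second probe set, in 8 of 11 other settings (log2(intensity + 16), the floor at the 20th percentile, the stricter filter, both blocks, replicates 1 and 2 alone, array weights, and the trend and robust variance model), and 2 to 3 with 1 array left out. For KO cells against unstimulated KO cells it was 0 as reported and 1, Socs1, with array weights at each time; over both times it was 1 with array weights, the stricter filter, only the groups compared, replicate 3 as a batch block, or a trend and robust variance model. Without WT 100 min replicate 3 Socs1 was called in KO cells at 100 min (adjusted p = 0.0439), at 400 min (adjusted p = 0.0187) and over both times (adjusted p = 0.0111), so these counts lay between 0 and 1 with 1 array left out. For WT cells against unstimulated WT cells it was 0 as reported and 1, Socs3, within replicates 1 and 2 at 100 min, at 400 min and over both times, and 0 to 1 with 1 array left out at 400 min and over both times, the 1 being without the library labelled KO 400 min replicate 3. Between 400 and 100 min, in unstimulated cells and in the differences between responses, 0 probe sets were called under any of these settings.

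Over 15 comparisons and all settings, 70 of 2115 fold changes of the 5 SOCS probe sets changed sign; 28 were of Socs2, 21 of Cish, 11 of Socs1, 7 of Socs3 on the second and 3 on the first probe set. The stricter filter left Socs2 out. None of the 70 was called, and the reported log2 values were at most 0.63 in size. Among the values printed above, Socs2 in KO against WT cells at 400 min (-0.03) was 0.049 within replicates 1 and 2 and between -0.12 and 0.093 with 1 array left out. Cish there (-0.45) was between -0.83 and 0.28 with 1 array left out, the only positive value being without the library labelled KO 400 min replicate 3, and -0.10 within replicates 1 and 2. For Socs1 in WT cells, at 100 min it was 0.29 within replicates 1 and 2 and 0.065 with array weights, and between -0.76 and 0.29 with 1 array left out; over both times it was 0.042 within replicates 1 and 2. The cause of these moves was not tested. Same-numbered arrays shared only a part of their deviations: 11 of 40 such pairs from different groups correlated above 0.1 (median 0.06), against 2 of 80 differently numbered pairs (median -0.04). Since not every pair passed 0.1, the numbers were not taken as pairing the arrays. With the replicate block, 0 probe sets were called at 100 min, 1 at 400 min (Socs1, 2.58, adjusted p = 0.0178) and 3 over both times (Socs3 on the second probe set at -2.52, adjusted p = 0.0442) in KO against WT cells, and 0 in the others. Only 2 unstimulated WT arrays stand behind each WT response, and no detection calls bound the dim probe sets.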

Other observations

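Socs5, a SOCS gene with a long N-terminal region, was the only other family member among Socs4 to Socs7 with a probe set that carries its symbol alone. Socs5 read 180.0 to 674.1 on the 9 KO arrays and 183.0 to 676.5 on the 8 WT arrays, so the genotypes overlapped. In limma's test the log2 difference of KO from WT cells was -0.44 at 100 min (SE 0.43, adjusted p = 0.999) and 0.30 at 400 min (SE 0.43, adjusted p = 0.895). After 100 min of IL-6 the log2 change of Socs5 was -0.69 in KO cells (SE 0.43, adjusted p = 0.949) and -0.70 in WT cells (SE 0.48, adjusted p = 0.897).

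Beside Socs1, the probe sets whose KO and WT arrays did not overlap at all were looked up after their values were seen. The 9 that were lower on every KO array included Eif2s3y, Apoe, the apolipoprotein of lipid transport, Ctla2b, Akr1c13, Dbi, Ndufb5 and Fam32a, and 2 without a single symbol.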
